A study of Mus musculus with 70 samples.

Results

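Liver resident macrophages sorted from female mice were compared with total liver of female mice of the same genotype and diet, to describe which transcripts mark the sorted cells and how much RNA of other liver cells their libraries hold. The comparison took the 4 macrophage libraries and the 4 total liver libraries labelled female, WT and control diet, 8 of the 70 libraries of the series, on the 24982 gene symbols that both count tables list. WT mice carried Lyz2.Cre+/+ and no other stated allele, so a Cre in the lysozyme locus, a driver of myeloid cells, is shared by both groups. The mice were fed the control diet for 24 weeks, and their age is not given in the sources used here. Macrophages were sorted as F4/80high CD11blow, the surface phenotype of resident Kupffer cells. Their RNA was isolated with the Qiagen miRNeasy micro kit and that of liver with the illustra RNAspin Mini kit, so tissue and kit cannot be told apart in any value below. Libraries of both kinds were prepared with the Illumina TruSeq Stranded mRNA kit. The same contrast in 4 macrophage and 4 liver libraries of female OpnKI Mye mice on the control diet, a myeloid knock-in of osteopontin by its name (KI below), served as a second set of libraries that shares none with the first. The labels do not state that each library came from a separate mouse, so the p-values measure the spread between these libraries, which may be technical in part.

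Kupffer cells are the resident macrophages of the liver sinusoids, where they take up bacteria, spent red cells and lipoproteins from the blood. They keep their identity under the transcription factors PU.1, LXR alpha and ID3 and under signals from their neighbours: macrophage colony stimulating factor, Notch ligands, and ligands of the TGF beta family made by endothelial and stellate cells. Hepatocytes, which make up most of the liver mass, supply most of the RNA of total liver, along with plasma proteins, bile acids and detoxifying enzymes. In total liver a transcript can be low because few cells carry it or because each cell holds little of it, and these cannot be told apart.

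The liver libraries held 20917438 to 21849341 counts and the macrophage libraries 17151791 to 26244679. The 10 most abundant genes took 19.3 to 20.6% of liver counts and 8.21 to 9.02% of macrophage counts. Levels are given in CPM, the counts of a gene scaled to a common library total, after TMM scaling, which corrects the totals for such differences in composition, and in the order of replicates 1 to 4. Xist, expressed from the inactive X chromosome, lay at 953, 1059, 1332 and 1585 CPM in liver and 769.9, 742, 712 and 691 CPM in macrophages, and the Y-linked Ddx3y had no count in any of the 8, as the labels of sex say.

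Of 13158 genes tested, 5420 were higher in macrophages and 5659 lower at an adjusted p under 0.05 (edgeR quasi-likelihood test, Benjamini-Hochberg adjustment), which is 84.2% of the genes tested, 41.2% higher and 43.0% lower. Most of the genes tested therefore differed between the tissues, and a passed test alone sets no gene apart. The shares of 41.2% and 43.0% are the background for every list count below. Genes over 8-fold higher made up 10.5% of those tested (1379 genes) and genes over 8-fold lower 15.0% (1969 genes). The median log2 fold change over all genes tested was -0.04, with quartiles at -1.49 and 1.11. With scaling by total counts alone, all fold changes shifted by a median of 0.49 (log2) towards macrophages, and the split became 6960 higher and 4299 lower, so the direction of genes within about that distance of 0 depends on the scaling. The plot of list members shows the Kupffer cell, leukocyte and cytokine lists at the upper end and the hepatocyte lists at the lower end.

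**Figure D1:**
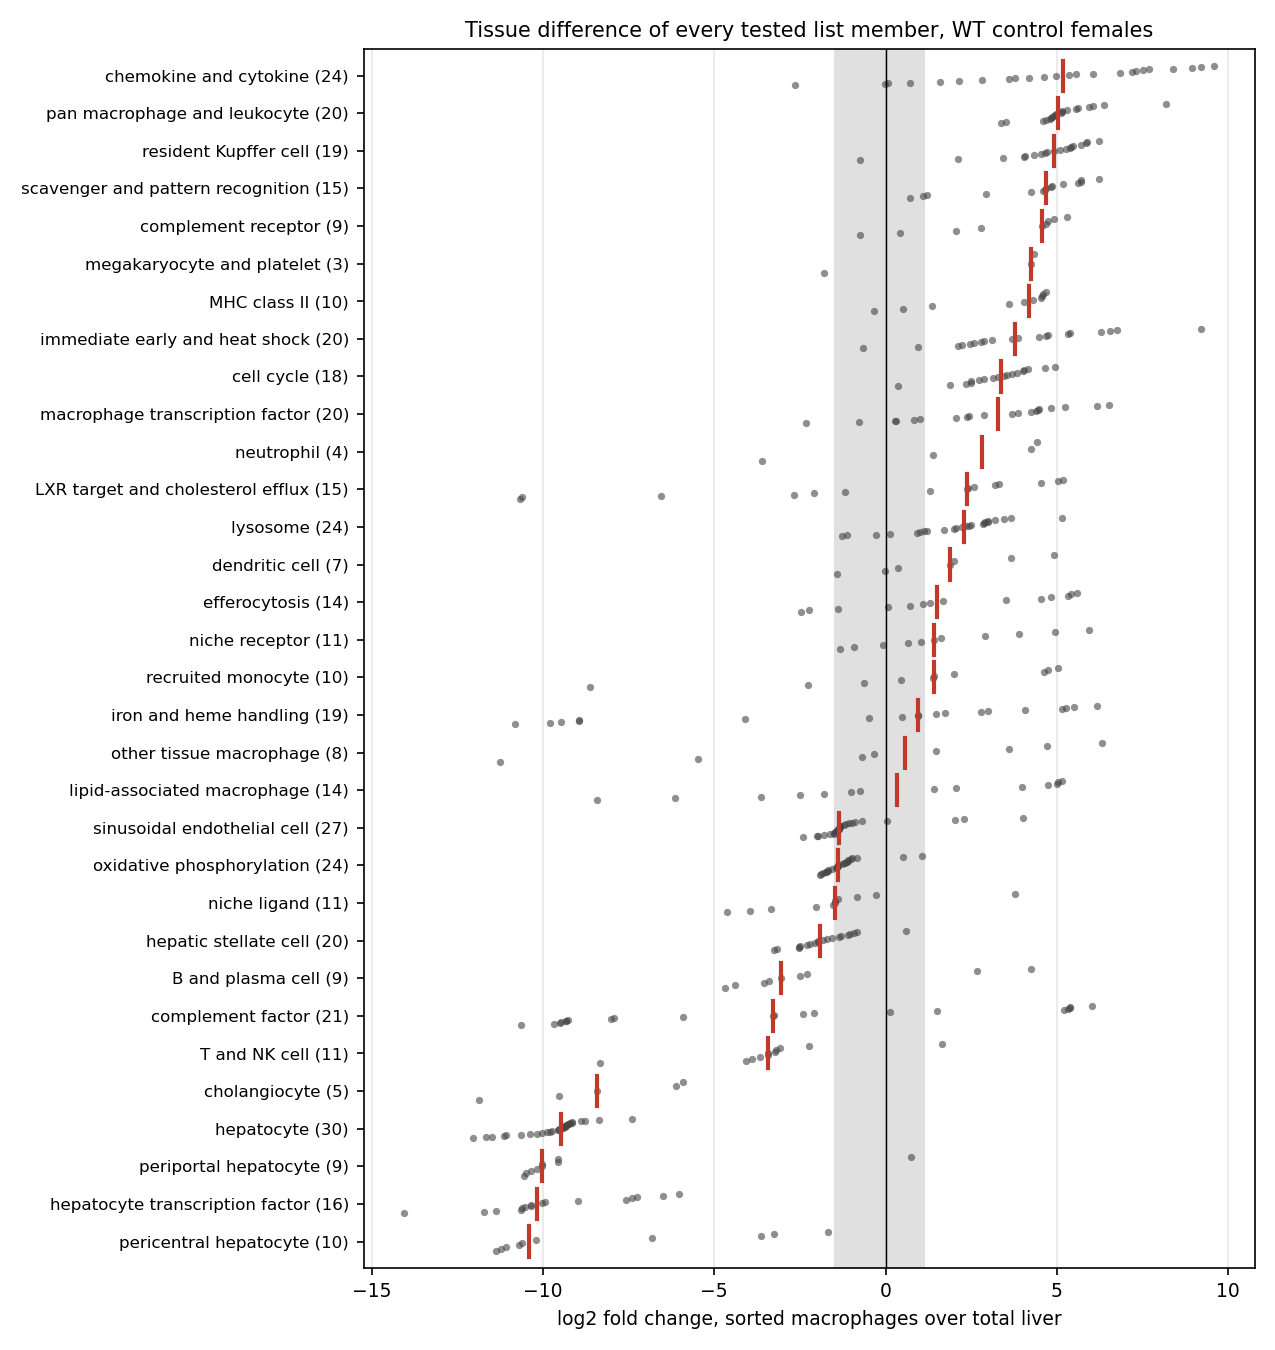
Log2 fold change of sorted macrophages over total liver (horizontal axis, edgeR) for each tested member of the gene lists with 3 or more tested members; points are genes, red bars list medians, numbers in parentheses the tested members, and the grey band the middle 50% of all genes tested. The resident Kupffer cell list has its median at 4.90 and the hepatocyte list at -9.48.

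Markers of resident Kupffer cells were among the most abundant transcripts of the sorted cells. Of the 19 genes of the resident Kupffer cell list, all 19 were tested, 18 were higher in macrophages, 17 of them over 8-fold, and 1 was lower, against 41.2% higher and 10.5% over 8-fold higher among all genes tested. Liver and macrophage libraries did not overlap in any of the 19, as was so in 39.7% of all genes on the higher and 40.6% on the lower side. The median log2 fold change of the list was 4.90. Clec4f, a galactose-binding lectin carried by Kupffer cells and few other cells, lay at 158, 139.9, 161 and 217 CPM in liver and 10034, 9773, 10071 and 9511 CPM in macrophages (log2 fold change 5.86 ± 0.22 SE, adjusted p = 1.11e-09). The groups did not overlap, and the macrophage libraries lay within a narrow range of each other. Cd5l, a secreted scavenger receptor protein, lay at 176, 171, 192 and 229 CPM in liver and 10636, 10228, 8375 and 10374 CPM in macrophages (log2 fold change 5.69 ± 0.21 SE, adjusted p = 1.00e-09). Vsig4, the complement receptor by which Kupffer cells catch opsonised particles, lay at 74.6, 67.5, 99.1 and 86.0 CPM in liver and 2822, 2663, 2159 and 2124 CPM in macrophages (log2 fold change 4.90 ± 0.19 SE, adjusted p = 1.64e-09). Timd4, the phosphatidylserine receptor of long-lived resident macrophages, lay at 15.1, 16.3, 24.4 and 23.2 CPM in liver and 992, 960.2, 694 and 743 CPM in macrophages (log2 fold change 5.42 ± 0.23 SE, adjusted p = 2.62e-09). In both Vsig4 and Timd4 macrophage replicates 1 and 2 lay above 3 and 4, while the liver libraries lay far below any of them.

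Slc40a1, the iron exporter ferroportin, lay at 227, 193, 218 and 209 CPM in liver and 3876, 3494, 3364 and 3476 CPM in macrophages (log2 fold change 4.07 ± 0.14 SE, adjusted p = 7.50e-10). Marco, a scavenger receptor for bacteria, had the largest fold change of the list, with 6.13, 7.0, 29.3 and 26.4 CPM in liver and 1693, 1505, 665 and 1271 CPM in macrophages (log2 fold change 6.22 ± 0.61 SE, adjusted p = 3.45e-06), and in liver replicates 3 and 4 lay above 1 and 2. The same held more widely. Liver replicates 3 and 4 lay above 1 and 2 in 12 of the 19 Kupffer cell genes and the reverse held in 0 of them, against 2660 and 2874 of the 13158 genes tested. Folr2, a folate receptor, rose from 18.8, 18.1, 17.2 and 23.8 CPM to 1251, 1148, 986 and 1131 CPM (log2 fold change 5.86 ± 0.16 SE, adjusted p = 1.73e-10). The remaining members over 8-fold higher were C6, Cd163, Fabp7, Il18bp, Ptgs1, Clec1b, Cd207, Xlr, Slc16a9 and Kcna2, with log2 fold changes from 3.42 in Cd207 to 5.45 in Ptgs1. Hpgd, the enzyme that inactivates prostaglandins, was less far above liver (197, 249, 292 and 161 CPM in liver and 983, 888, 1039 and 971 CPM in macrophages, log2 fold change 2.11 ± 0.18 SE, adjusted p = 1.15e-06). Paqr9 was the member that was lower, at 265, 254, 248 and 391 CPM in liver and 149, 169, 162 and 209 CPM in macrophages (log2 fold change -0.75 ± 0.17 SE, adjusted p = 0.00164), and its groups did not overlap either, but with total-count scaling it had -0.26 (adjusted p = 0.193). The liver level of the list members was 1.34 to 168% of their macrophage level, with a median of 3.35%. Summed over the list, macrophages held 33382 to 37806 CPM and liver 1268 to 1555 CPM, with no overlap.

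**Figure D2:**
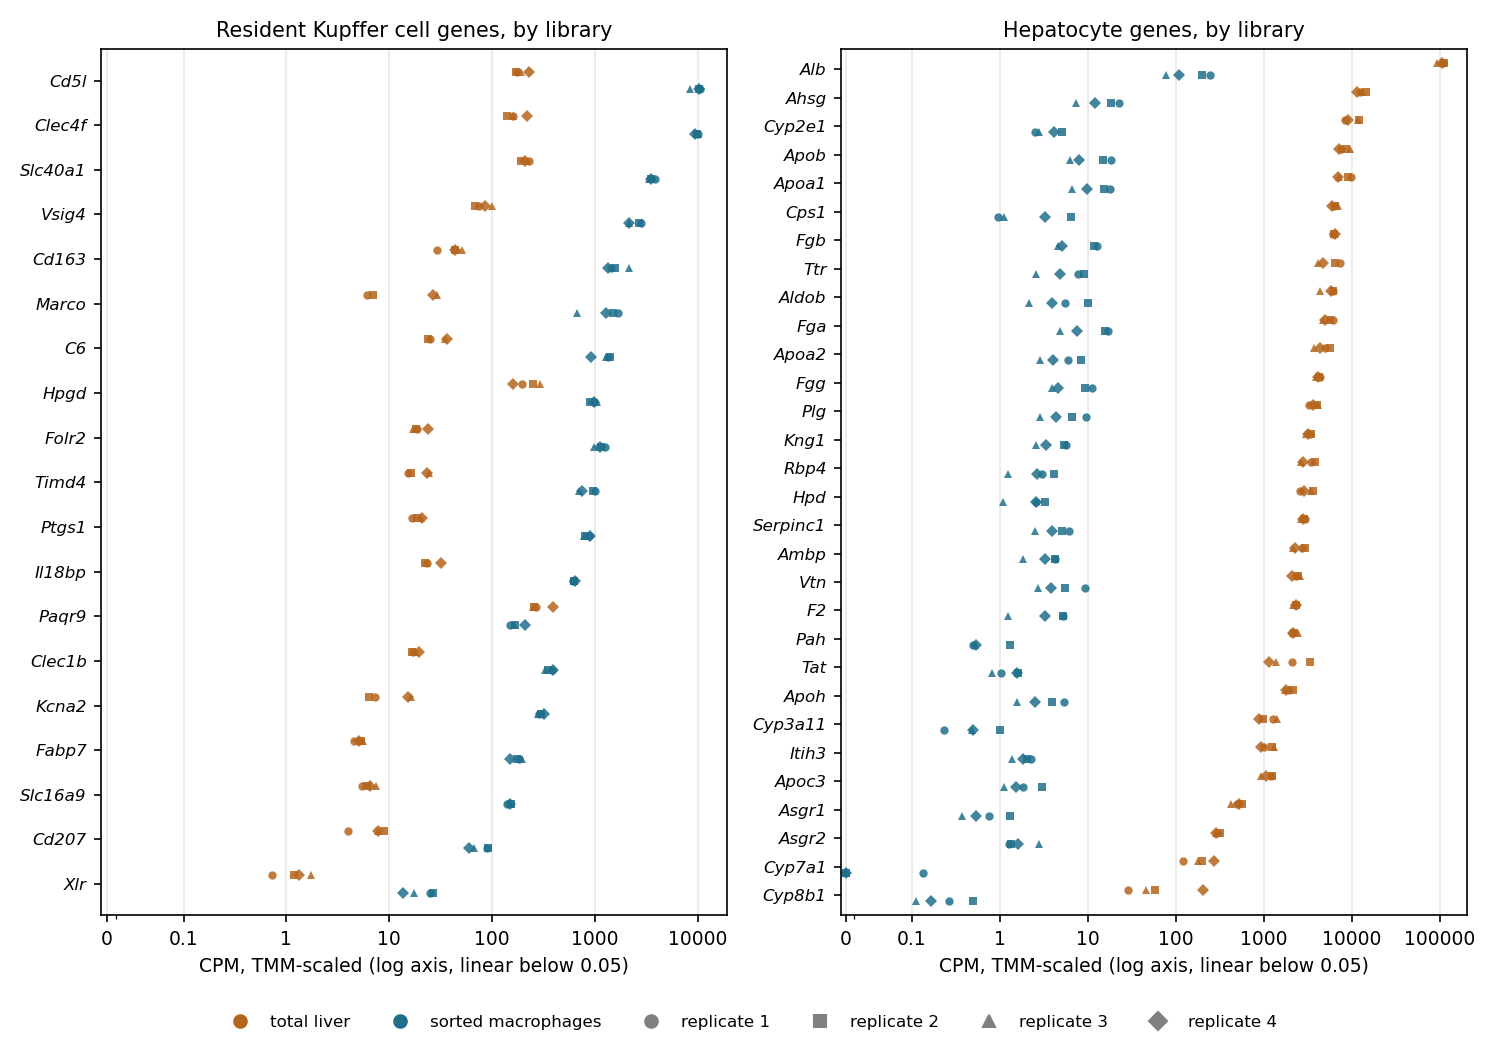
Level of each resident Kupffer cell gene (left) and hepatocyte gene (right) in each library, in TMM-scaled CPM on a log axis that is linear below 0.05; colour marks the tissue and marker shape the replicate. Macrophage points lie right of liver points in 18 of 19 Kupffer cell genes and left of them in 30 of 30 hepatocyte genes.

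Promoter sequence was read for the genes that move together, from the RefSeq promoter table of build GRCm38.p6, which held 17 of the 19 Kupffer cell genes, 22 of the 30 hepatocyte genes and 10366 of the 13158 tested genes. The 250 bases before each annotated start were searched on both strands for 8 short motifs chosen after the fold changes were known. The letters AGGAAGT, a core bound by PU.1 and other ETS factors, stood in 14.2% of 1355 promoters of genes over 8-fold higher in macrophages, in 6.33% of 1911 promoters of genes over 8-fold lower, in 7.54% of promoters of tested genes and in 7.69% of all promoters. CAAAGTNCA, a site of the factor encoded by Hnf4a, stood in 1.85%, 2.93%, 1.2% and 1.19% of the same sets, and GAANNGAAA, searched as an interferon response element, in 6.72%, 5.55%, 5.22% and 6.31%. An interferon response element of 10 letters, with a wider spacing of its repeats, stood in 5.39%, 2.3%, 2.84% and 2.98%. The contrast between higher and lower genes was larger for it than for GAANNGAAA. Its matches are not a subset of those of GAANNGAAA, so the effect of a stricter search was not tested. TGANTCA, the AP-1 site, stood in 7.38%, 7.43%, 4.8% and 6.75%, about alike in both sets of changed genes. GGGANTTTC, part of an NF-kB site, stood in 1.25%, 0.837%, 0.856% and 0.941%, a palindromic NF-kB site of 10 letters in 0.812%, 0.157%, 0.326% and 0.283%, and TCACGTGA, the core of lysosomal gene promoters, in 1.18%, 0.68%, 1.45% and 0.785%. In 0.533% of all promoters matches of different motifs shared bases, the interferon and NF-kB elements of 10 letters included. A match describes the letters and not binding, and the motifs do not separate single genes: CAAAGTNCA also stood in the promoter of Clec1b, a Kupffer cell gene.

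AGGAAGT stood in 3 of 18 Kupffer cell list promoters (16.7%) and in 0 of 25 hepatocyte list promoters. Those 3 are shown with the matched letters in capitals (reverse strand matches read ACTTCCT), followed by that of Clec4f, which holds no match in this window. Folr2 lies at chr7:101857191-101857440 on the minus strand, Ptgs1 at chr2:36230176-36230425 and Fabp7 at chr10:57784673-57784922 on the plus strand, and Clec4f at chr6:83656117-83656366 on the minus strand.
Folr2: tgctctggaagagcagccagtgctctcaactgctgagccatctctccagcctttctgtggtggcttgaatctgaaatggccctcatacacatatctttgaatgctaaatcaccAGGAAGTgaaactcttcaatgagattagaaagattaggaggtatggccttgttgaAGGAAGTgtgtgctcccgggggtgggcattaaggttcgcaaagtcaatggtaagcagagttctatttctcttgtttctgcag
Ptgs1: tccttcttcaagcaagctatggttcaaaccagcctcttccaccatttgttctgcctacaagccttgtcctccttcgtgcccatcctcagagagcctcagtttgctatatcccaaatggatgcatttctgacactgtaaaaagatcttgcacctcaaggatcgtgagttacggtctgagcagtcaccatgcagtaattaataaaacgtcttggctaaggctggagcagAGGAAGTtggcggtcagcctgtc
Fabp7: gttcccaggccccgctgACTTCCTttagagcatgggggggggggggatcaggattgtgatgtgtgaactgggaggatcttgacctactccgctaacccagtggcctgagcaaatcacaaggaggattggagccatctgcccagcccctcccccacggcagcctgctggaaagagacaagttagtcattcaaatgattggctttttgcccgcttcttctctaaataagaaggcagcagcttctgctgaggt
Clec4f: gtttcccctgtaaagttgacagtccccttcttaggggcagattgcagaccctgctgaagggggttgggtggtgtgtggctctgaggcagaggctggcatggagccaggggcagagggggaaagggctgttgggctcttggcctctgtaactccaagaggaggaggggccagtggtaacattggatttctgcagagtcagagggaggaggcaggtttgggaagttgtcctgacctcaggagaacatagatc

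CAAAGTNCA stood in 2 of 25 hepatocyte list promoters and in 1 of 18 Kupffer cell list promoters. The 2 hepatocyte list promoters are shown for contrast, Cyp3a11, a xenobiotic-metabolizing cytochrome, at chr5:145879855-145880104 and Cyp8b1, the sterol hydroxylase that makes cholic acid, at chr9:121916306-121916555, both on the minus strand. They had log2 fold changes of -11.07 and -8.36, and without liver replicate 4, the highest liver library for Cyp8b1, that gene had -7.43 (adjusted p = 8.35e-08).
Cyp3a11: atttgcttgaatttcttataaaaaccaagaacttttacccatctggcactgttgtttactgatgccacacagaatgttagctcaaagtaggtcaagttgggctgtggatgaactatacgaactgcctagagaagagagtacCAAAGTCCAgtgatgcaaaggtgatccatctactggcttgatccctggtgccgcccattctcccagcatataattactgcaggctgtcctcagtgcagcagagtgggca
Cyp8b1: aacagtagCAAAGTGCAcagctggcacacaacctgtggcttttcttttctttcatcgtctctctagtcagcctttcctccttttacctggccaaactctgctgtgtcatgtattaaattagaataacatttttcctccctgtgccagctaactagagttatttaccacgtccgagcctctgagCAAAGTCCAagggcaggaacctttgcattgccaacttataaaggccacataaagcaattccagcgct
The matched letters begin 109 bases before the annotated start in Cyp3a11 and 242 and 67 bases before it in Cyp8b1. In Folr2 they begin 137 and 82 bases before it, in Ptgs1 23 and in Fabp7 233.

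Genes shared by macrophages and other leukocytes were higher as a group: 20 of 20 were tested and 20 were higher, each over 8-fold (median 5.04). Csf1r, the receptor for macrophage colony stimulating factor, lay at 92.5, 96.3, 114 and 111 CPM in liver and 6638, 6811, 5858 and 5745 CPM in macrophages (log2 fold change 5.92 ± 0.18 SE, adjusted p = 3.31e-10). Mpeg1, a pore-forming protein of phagocytes, and Ctss, a lysosomal protease of antigen-presenting cells, had log2 fold changes of 4.92 and 5.15. Coro1a, an actin regulator of leukocytes, was the least raised, at 8.74, 9.96, 7.39 and 9.71 CPM in liver and 104, 111, 67.0 and 90.1 CPM in macrophages (log2 fold change 3.38 ± 0.17 SE, adjusted p = 1.43e-08). Adgre1 encodes F4/80 and Itgam encodes CD11b, the proteins the sort used, so their levels describe the sort. Adgre1 lay at 24.9, 27.4, 31.6 and 33.3 CPM in liver and 2919, 2926, 1987 and 1919 CPM in macrophages, and Itgam at 4.34, 5.06, 3.78 and 5.26 CPM in liver and 157, 154, 91.6 and 73.0 CPM in macrophages. The groups did not overlap in either gene.

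Lyz2, the lysozyme gene into which the Cre is inserted, lay at 2.34, 1.31, 2.33 and 2.95 CPM in liver and at 145, 2281, 78.0 and 81.0 CPM in macrophages (log2 fold change 8.17 ± 1.37 SE, adjusted p = 2.27e-04), and the groups did not overlap. Replicate 2 stood apart from the other 3 macrophage libraries, and without it the log2 fold change was 5.51 (adjusted p = 8.47e-08). The gene lies on GRCm38 chromosome 10 from 117277331 to 117282321 on the minus strand. In KI mice 1 macrophage library, replicate 4, stood apart in the same way, with 75.5, 58.8, 73.9 and 2321 CPM over the 4 macrophage libraries.

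Transcription factors split the tissues as well. Of the 20 macrophage factors tested, 18 were higher and 2 lower (median 3.28), against 41.2% and 43.0% of all genes tested. Spi1, the gene of PU.1, rose from 10.4, 11.3, 10.6 and 13.9 CPM to 422, 462, 381 and 459.7 CPM (log2 fold change 5.23 ± 0.14 SE, adjusted p = 1.36e-10). Spic, the factor of heme-recycling macrophages, had 2.62, 1.42, 3.28 and 2.15 CPM in liver and 210.3, 159.8, 158 and 161 CPM in macrophages (log2 fold change 6.18 ± 0.22 SE, adjusted p = 8.24e-10). Id3 and Nr1h3, the latter the gene of LXR alpha, had log2 fold changes of 4.25 and 2.38. Nr1h3 was also measured in liver, at a mean of 111 ± 4.48 CPM against 579 ± 83.6 CPM in macrophages (SD, n = 4 each). Irf7, an interferon regulator, rose by 4.43, and Klf4, the most raised member, by 6.51. Klf4 varied in liver, where replicates 1 and 2 (6.74 and 14.3 CPM) lay above 3 and 4 (2.61 and 2.79 CPM). Without liver replicate 2 its log2 fold change was 7.22 (adjusted p = 6.13e-08). The other higher factors ranged from 0.27 to 4.81, the smallest of which is under the shift between scalings. Cebpa was lower in macrophages (762, 734, 670.2 and 696 CPM in liver and 376, 380.3, 512 and 415 CPM in macrophages, log2 fold change -0.77 ± 0.13 SE, adjusted p = 2.11e-04), though with total-count scaling it had -0.27 (adjusted p = 0.0774). Mef2c was lower as well, at 1.47, 1.51, 1.31 and 1.72 CPM in macrophages (log2 fold change -2.33 ± 0.20 SE, adjusted p = 8.99e-07).

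The hepatocyte factors showed the reverse: 16 of 16 were lower, each over 8-fold, against 15.0% of all genes tested (median -10.18). Hnf4a, the master factor of hepatocytes, lay at 909.6, 1138, 821 and 669.5 CPM in liver and 1.03, 1.51, 0.413 and 0.698 CPM in macrophages (log2 fold change -9.94 ± 0.37 SE, adjusted p = 1.14e-09), and Nr1i2, the xenobiotic sensor PXR, at 139.6, 158, 127 and 139 CPM in liver and 0.167, 0.302, 0.0376 and 0.0411 CPM in macrophages (log2 fold change -10.03 ± 0.27 SE, adjusted p = 1.49e-10). Creb3l3, an endoplasmic reticulum-bound factor, was the least lowered, with 4.60, 4.98, 5.18 and 5.91 CPM in macrophages (log2 fold change -6.04 ± 0.15 SE, adjusted p = 9.90e-11). Onecut1 had no count in any macrophage library, against 163, 163, 28.3 and 38.3 CPM in liver, so it was at least 3295-fold lower, taking 3 counts over the 4 libraries as the floor. Foxa1, Foxa2 and Tbx3 had 2 counts each over the 4 macrophage libraries.

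The signals that hold Kupffer cells in their niche lay on both sides of the comparison. Of 11 ligands tested, 9 were lower in macrophages, against 43.0% of all genes tested, 1 was higher and 1 did not pass (median -1.48). Csf1, macrophage colony stimulating factor, lay at 25.3, 24.8, 23.8 and 26.2 CPM in liver and 6.49, 7.59, 10.3 and 11.6 CPM in macrophages (log2 fold change -1.48 ± 0.17 SE, adjusted p = 1.16e-05). Il34, the second ligand of the same receptor, had a log2 fold change of -1.54, and the Notch ligands Dll1 and Jag1 had -4.64 and -3.34. Gdf2, which signals through ALK1, had -2.04, and the chemokine Cxcl12 had -3.96. Tgfb1 was the ligand that was higher in macrophages, at 21.7, 23.3, 17.5 and 16.5 CPM in liver and 297, 323, 215 and 256 CPM in macrophages (log2 fold change 3.79 ± 0.17 SE, adjusted p = 4.39e-09). Cx3cl1 did not pass, with mean levels of 1.15 ± 0.529 CPM in liver and 0.935 ± 0.470 CPM in macrophages (SD, n = 4 each).

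Among 11 receptors, 8 were higher, 2 were lower and 1 did not pass, against 41.2% higher and 43.0% lower in all genes (median 1.42). Acvrl1, which encodes ALK1, rose from 5.07, 6.49, 4.72 and 4.94 CPM to 167, 160.3, 155 and 165 CPM (log2 fold change 4.93 ± 0.12 SE, adjusted p = 8.70e-11). Tgfbr2 and Tgfbr1, the subunits of the TGF beta receptor, had log2 fold changes of 2.91 and 1.60, Notch1 had 1.02 and Notch2 0.64. Cxcr4, the receptor of Cxcl12, had 3.90. Eng, a co-receptor of endothelial cells, was lower (91.1, 123, 108 and 89.7 CPM in liver and 26.8, 34.0, 33.1 and 68.3 CPM in macrophages, log2 fold change -1.34 ± 0.26 SE, adjusted p = 6.84e-04), and macrophage replicate 4 was the highest of its group. Bmpr1a was lower too (-0.92), and Bmpr2 lay at 68.0, 77.0, 108 and 67.1 CPM in liver and 83.4, 80.4, 76.9 and 62.5 CPM in macrophages, with overlapping groups, and was higher with total-count scaling (0.41 (adjusted p = 0.0315)).

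Scavenger and pattern recognition receptors were higher in 15 of 15 cases, against 41.2% of all genes tested (median 4.67). Mrc1, the mannose receptor, lay at 85.4, 117, 111 and 89.9 CPM in liver and 2017, 2102, 1949.5 and 1519.7 CPM in macrophages (log2 fold change 4.23 ± 0.18 SE, adjusted p = 2.77e-09), and the toll-like receptors Tlr2, Tlr4, Tlr7 and Tlr9 had log2 fold changes of 5.60, 4.60, 5.72 and 4.67. Clec7a, the beta-glucan receptor, and Clec4n, a fungal lectin receptor, had 5.16 and 4.85. Stab1 and Scarb2 were closer to liver, at 1.08 and 1.22. Cd36, a fatty acid receptor that hepatocytes can also carry, was the least raised (138, 149, 100.3 and 193 CPM in liver and 301, 298, 155 and 199 CPM in macrophages, log2 fold change 0.72 ± 0.24 SE, adjusted p = 0.0184), and its groups overlapped. Without liver replicate 3 it had 0.57 (adjusted p = 0.0509) and without macrophage replicate 1 0.59 (adjusted p = 0.052), and with the spread taken over 16 libraries 0.73 (adjusted p = 0.103).

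Complement genes lay on both sides of the comparison. Of 23 factors 21 were tested: 6 were higher in macrophages, 14 were lower and 1 did not pass (median -3.30). Among all genes tested 41.2% were higher and 43.0% lower. The 3 chains of C1q, which starts the classical pathway, lay at 4269.9, 4173, 3724 and 3929 CPM (C1qa), 3822, 3931, 3514 and 3658 CPM (C1qb) and 4267, 4353, 3725 and 3971 CPM (C1qc) in macrophages. In liver they lay at 87.3 to 127, 81.8 to 131 and 87.7 to 122 CPM, with log2 fold changes of 5.31, 5.22 and 5.37. Cfp, properdin, which stabilises the alternative pathway convertase, had the largest fold change of the factors (51.6, 43.9, 41.5 and 67.2 CPM in liver and 3865, 3898, 2657 and 2878 CPM in macrophages, log2 fold change 6.02 ± 0.25 SE, adjusted p = 2.39e-09). C6, a component of the membrane attack complex, had 5.37, and C2 had 1.51. C6 was thus higher in macrophages while the other listed components of that complex were lower: Hc, the gene of C5, with -9.34, C8a with -9.26, C8b with -9.50, C8g with -7.93 and C9 with -9.68.

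C3, the central factor, lay at 11587, 15777, 15719 and 10632 CPM in liver and 248, 269.8, 173 and 195 CPM in macrophages (log2 fold change -5.92 ± 0.27 SE, adjusted p = 5.89e-09). The mannose-binding lectin Mbl2 was the most lowered factor (-10.65), and C1s1 and Cfi had -8.00 and -9.47. C1ra, Masp1 and Cfb stood nearer to liver, at -3.24, -3.30 and -2.41. C4b did not pass but with total-count scaling was higher, at 0.62 (adjusted p = 0.00171) (mean 1769.8 ± 215 CPM in liver and 1944 ± 199.7 CPM in macrophages, SD, n = 4 each). Of 9 complement receptors and regulators, 8 were higher (median 4.55): C3ar1 and C5ar1, receptors of the anaphylatoxins, had 5.30 and 4.55, and Itgb2 4.75. Cd46 did not pass (0.446, 0.797, 1.00 and 0.966 CPM in liver and 0.599, 0.302, 0.563 and 0.411 CPM in macrophages). It passed without liver replicate 1, with -0.95 (adjusted p = 0.0249), and without liver replicates 1 and 2, with -1.04 (adjusted p = 0.0342).

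Genes for the uptake of dying cells were higher in 10 of 14 tested, lower in 3, and 1 did not pass (median 1.49). Among all genes tested 41.2% were higher and 43.0% lower. Lrp1, a large endocytic receptor, was abundant in both tissues (1162, 1461, 1478 and 1250.1 CPM in liver and 2945, 3420.4, 3248 and 3507 CPM in macrophages, log2 fold change 1.29 ± 0.15 SE, adjusted p = 1.04e-05). The receptor kinases Axl and Mertk, which bind phosphatidylserine through bridging proteins, lay at 45.8, 47.5, 55.3 and 62.9 CPM in liver and 1988, 2113, 2146 and 2239 CPM in macrophages and 52.1, 61.4, 69.4 and 68.8 CPM in liver and 767, 747, 739 and 622 CPM in macrophages (5.33 and 3.51 on the log2 scale). The bridging proteins went the other way: Gas6 had -2.25 and Mfge8 -2.47, while Pros1 did not pass (74.2, 78.6, 62.2 and 76.6 CPM in liver and 78.6, 80.8, 72.5 and 77.0 CPM in macrophages) except with total-count scaling, at 0.57 (adjusted p = 8.18e-05). Cd300a, an inhibitory receptor for phosphatidylserine, had the largest fold change, 5.58.

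Iron and heme genes lay on both sides of the comparison. Of 19 tested, 12 were higher and 7 lower, against 41.2% and 43.0% of all genes tested (median 0.95). Hmox1, which breaks down heme, rose from 34.7, 33.0, 33.2 and 36.2 CPM to 1164, 984, 1217 and 1452 CPM (log2 fold change 5.14 ± 0.16 SE, adjusted p = 2.99e-10), and Slc11a1, the iron transporter of phagosomes, had 5.50. Cd163, the hemoglobin-haptoglobin receptor, had 5.27, and Hfe, which senses iron, 2.78. The ferritin chains were abundant in both tissues: Ftl1 lay at 3288, 2742, 2102 and 2839.7 CPM in liver and 5396, 4859, 4825 and 5952 CPM in macrophages (log2 fold change 0.94 ± 0.18 SE, adjusted p = 5.78e-04) and Fth1 at 1742, 1744, 1259.5 and 1547 CPM in liver and 2361, 2254, 1999 and 2228 CPM in macrophages (log2 fold change 0.49 ± 0.15 SE, adjusted p = 0.0102). Hamp, the gene of hepcidin, which closes ferroportin, lay at 819.5, 509.6, 1033 and 942 CPM in liver and 0.466, 0.302, 0.150 and 0.903 CPM in macrophages (log2 fold change -10.80 ± 0.45 SE, adjusted p = 2.73e-09). Its sensor partner Tfr2 had -9.46, and the plasma carriers of heme and hemoglobin, Hpx and Hp, had -8.94 and -8.93. Trf, transferrin, was lower as well but kept 1029.9, 1021, 1349 and 1128 CPM in macrophages against 20744, 19913, 19358 and 18168 CPM in liver (log2 fold change -4.11 ± 0.21 SE, adjusted p = 1.22e-08). Its macrophage level was 5.79% of that of liver, where Hpx, another plasma protein of hepatocytes, had 0.203%.

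Lysosomal genes were higher in 20 of 24, against 41.2% of all genes tested, lower in 2, and 2 did not pass (median 2.28). Ctsb, a cysteine protease, lay at 907, 931, 1008 and 899 CPM in liver and 10475, 9572, 10627 and 10140.2 CPM in macrophages (log2 fold change 3.45 ± 0.16 SE, adjusted p = 7.81e-09), and Psap, Ctsd and Ctsc had log2 fold changes of 2.98, 2.88 and 3.67. Hexa, Asah1 and Npc2, which degrade or move lipids, had 3.18, 2.99 and 2.89. Ctsl and Npc1 were lower (-1.12 and -1.28), so the pair of proteins that export cholesterol from lysosomes lay on opposite sides.

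Targets of LXR, which move cholesterol out of cells, were higher in 9 of 15 and lower in 6 (median 2.38). The shares among all genes tested were 41.2% and 43.0%. Abcg1 and Abca1, the efflux pumps of macrophages, had 4.53 and 1.29, Pltp, a phospholipid carrier, 3.19, and Lpl, lipoprotein lipase, 5.04. Lpl lay at 32.0, 25.7, 24.5 and 27.7 CPM in liver and 786, 651, 696 and 1482 CPM in macrophages, with macrophage replicate 4 above the other 3. Abcg5, a sterol pump of the bile canaliculus, was lower (-10.60), as were the lipid synthesis genes Scd1 (-6.56) and Srebf1 (-2.67), while the related desaturase Scd2 was higher (3.32). Apoe, the lipoprotein ligand, was lower than in liver (24722, 24030.2, 26557 and 23099.8 CPM in liver and 8904, 9772, 12030.1 and 12161 CPM in macrophages, log2 fold change -1.20 ± 0.21 SE, adjusted p = 3.00e-04), yet per length it was the most abundant transcript of the macrophages. Oxidative phosphorylation subunits were lower in 22 of 24, against 43.0% of all genes tested (list median -1.40). The 22 ranged from -1.90 in Uqcrfs1 to -0.84 in Ndufa1. The remaining 2, Cox5a and Ndufa2, were higher (1.07 and 0.50).

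Of 14 genes of lipid-associated macrophages, a state described in steatosis, 7 were higher and 7 lower, with a median of 0.34. This split is near the 41.2% and 43.0% of all genes tested. Lgals3, a galectin, lay at 10.8, 9.50, 8.77 and 11.6 CPM in liver and 366, 381, 333 and 371 CPM in macrophages (log2 fold change 5.15 ± 0.12 SE, adjusted p = 8.88e-11). Trem2, the lipid receptor of that state, was low in liver (0.724, 0.683, 0.50 and 0.697 CPM) and lay at 8.06, 9.35, 19.9 and 32.7 CPM in macrophages (log2 fold change 4.74 ± 0.52 SE, adjusted p = 7.77e-06), with replicates 3 and 4 above 1 and 2. Cd9, a tetraspanin, and Ctsk, a collagen-degrading protease, were lower (-2.50 and -1.81). Spp1, the gene of osteopontin that the series manipulates, lay at 35.6, 28.0, 37.1 and 28.5 CPM in liver and 0.0666, 0, 0.113 and 0.164 CPM in macrophages (log2 fold change -8.41 ± 0.29 SE, adjusted p = 6.77e-10). It was thus near 0 in WT macrophages, and its liver level lay far above it in each library. In KI mice the macrophage libraries held 1.85, 1.36, 1.14 and 1.93 CPM and the liver libraries 30.1, 21.8, 26.7 and 53.6 CPM, and the tissue difference differed between genotypes by 4.01 on the log2 scale (interaction test, adjusted p = 5.90e-04).

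Several chemokine, cytokine and immediate early genes had larger fold changes than any Kupffer cell marker. Among genes that passed, did not overlap between groups and had a mean of at least 50 CPM in 1 tissue, the 12 most raised were Cxcl2, Fosb, Ccl7, Ccl3, Il10, Lyz2, Ccl4, Ccl2, Tnf, Cd83, Rgs1 and Slfn4, and 51 genes that passed lay above Marco, the top Kupffer cell gene, 9 of them in the chemokine and cytokine list, 4 in the immediate early list and the rest in neither. Cxcl2, a neutrophil attractant, lay at 0.334, 0.740, 0.0555 and 0.107 CPM in liver and 343, 209, 144 and 263 CPM in macrophages (log2 fold change 9.59 ± 0.48 SE, adjusted p = 1.16e-08). Ccl3, a chemokine of monocytes, lay at 0.223, 0.171, 0.333 and 0.268 CPM in liver and 164, 124, 103 and 106 CPM in macrophages (log2 fold change 8.93 ± 0.25 SE, adjusted p = 1.66e-10). Tnf, tumour necrosis factor, lay at 0.334, 0.228, 0.777 and 0.536 CPM in liver and 82.3, 58.3, 72.1 and 66.5 CPM in macrophages (log2 fold change 7.19 ± 0.24 SE, adjusted p = 5.40e-10). Il10, an anti-inflammatory cytokine, lay at 0, 0.341, 0.111 and 0.322 CPM in liver and 98.0, 50.8, 36.9 and 79.4 CPM in macrophages (log2 fold change 8.38 ± 0.51 SE, adjusted p = 6.21e-08). In each of these the liver libraries lay under 1 CPM, and the groups did not overlap. Slfn4, an interferon-induced gene of myeloid cells, varied among the macrophage libraries, with 8.13, 8.75, 103 and 229 CPM, replicates 3 and 4 far above 1 and 2 (log2 fold change 7.02 ± 1.28 SE, adjusted p = 4.06e-04). Without replicate 4 its log2 fold change was 5.91 (adjusted p = 5.34e-04), and without liver replicate 2 that of Cxcl2 was 10.46 (adjusted p = 3.63e-08).

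Of 24 cytokines and chemokines tested, 20 were higher, against 41.2% of all genes, 1 was lower and 3 did not pass (median 5.18). Il1b, the pyrogenic interleukin, lay at 6.74, 13, 2.39 and 5.95 CPM in liver and 1254, 877, 433 and 669 CPM in macrophages (log2 fold change 6.85 ± 0.55 SE, adjusted p = 5.98e-07), and Il1a, Ccl6 and Il6 had 5.56, 4.99 and 7.29. Ccl9 was the member that was lower (70.8, 70.4, 64.4 and 80.2 CPM in liver and 9.36, 9.91, 16 and 10.1 CPM in macrophages, log2 fold change -2.65 ± 0.17 SE, adjusted p = 1.04e-07). Ccl5, Cxcl9 and Tnfsf10 did not pass, with macrophage means of 2.61 ± 1.30, 32.9 ± 10.3 and 20.5 ± 4.4 CPM (SD, n = 4). Ccl5 passed without macrophage replicate 1 (0.95 (adjusted p = 0.0222)), with total-count scaling (1.20 (adjusted p = 0.0143)) and with the spread taken over 16 libraries (0.71 (adjusted p = 0.0433)). Cxcl9 passed without liver replicates 3 and 4 (0.77 (adjusted p = 0.0314)).

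Immediate early genes, which respond within minutes to handling, growth factors or stress, were higher in 18 of 20, and 2 did not pass (median 3.78). Among all genes tested 41.2% were higher. Fosb lay at 0.557, 8.48, 0.555 and 0.215 CPM in liver and 1412, 1410.2, 1510.2 and 1421 CPM in macrophages (log2 fold change 9.21 ± 0.99 SE, adjusted p = 6.67e-06), Fos at 23.7, 46.5, 1.55 and 1.88 CPM in liver and 1406, 1752, 1923 and 1831 CPM in macrophages (log2 fold change 6.55 ± 1.02 SE, adjusted p = 1.30e-04) and Jun at 322, 276, 17.3 and 15.4 CPM in liver and 1119, 1315, 1731 and 1212 CPM in macrophages (log2 fold change 3.09 ± 0.89 SE, adjusted p = 0.00793). The 4 macrophage libraries were near each other in these 3 genes, while liver replicates lay far apart. Liver replicates 1 and 2 lay above 3 and 4 in 19 of the 20 genes, against 2874 of the 13158 genes tested, and the list summed to 1974, 2439, 492 and 488 CPM in liver. Zfp36, which destabilises cytokine mRNA, lay at 396, 324, 125 and 136 CPM in liver and 1752, 1743, 1664 and 1968 CPM in macrophages, and Dusp1, a phosphatase of stress kinases, at 199, 243, 24.4 and 36.3 CPM in liver and 1509, 1689, 1548 and 1778 CPM in macrophages. Without liver replicates 1 and 2 the log2 fold change of Jun was 6.36 (adjusted p = 1.11e-07) and that of Fos 9.96 (adjusted p = 1.43e-08). Without liver replicates 3 and 4, likewise an alternative chosen after seeing the data, they were 2.18 (adjusted p = 3.13e-05) and 5.63 (adjusted p = 1.84e-06). Without liver replicate 2 alone Fosb had 11.66 (adjusted p = 7.70e-10) and Fos 7.60 (adjusted p = 6.75e-05), and without replicate 1 alone Jun had 3.71 (adjusted p = 0.00634). The heat shock genes Hsph1 and Dnajb1 did not pass (-0.66 and 0.95), while Hspa1a did (6.74, or 7.82 (adjusted p = 7.94e-06) without liver replicate 1). Dnajb1 passed without liver replicate 1 (1.34 (adjusted p = 0.0111)), without macrophage replicate 2 (1.07 (adjusted p = 0.0497)) and without macrophage replicate 4 (1.14 (adjusted p = 0.0316)). It also passed with total-count scaling (1.46 (adjusted p = 0.00655)), upper quartile scaling (0.99 (adjusted p = 0.0439)), no filter on low counts (1.01 (adjusted p = 0.0337)), the replicate block (1.01 (adjusted p = 0.0386)), the spread taken over 16 libraries (0.97 (adjusted p = 0.0197)) and without liver replicates 1 and 2 (1.87 (adjusted p = 0.00179)), so its call rests on the setting. Hsph1 passed without liver replicates 3 and 4, where it was lower (-1.22 (adjusted p = 0.0333)). Only the macrophages went through a cell sort, so sort and cell type cannot be told apart in these levels.

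**Figure D3:**
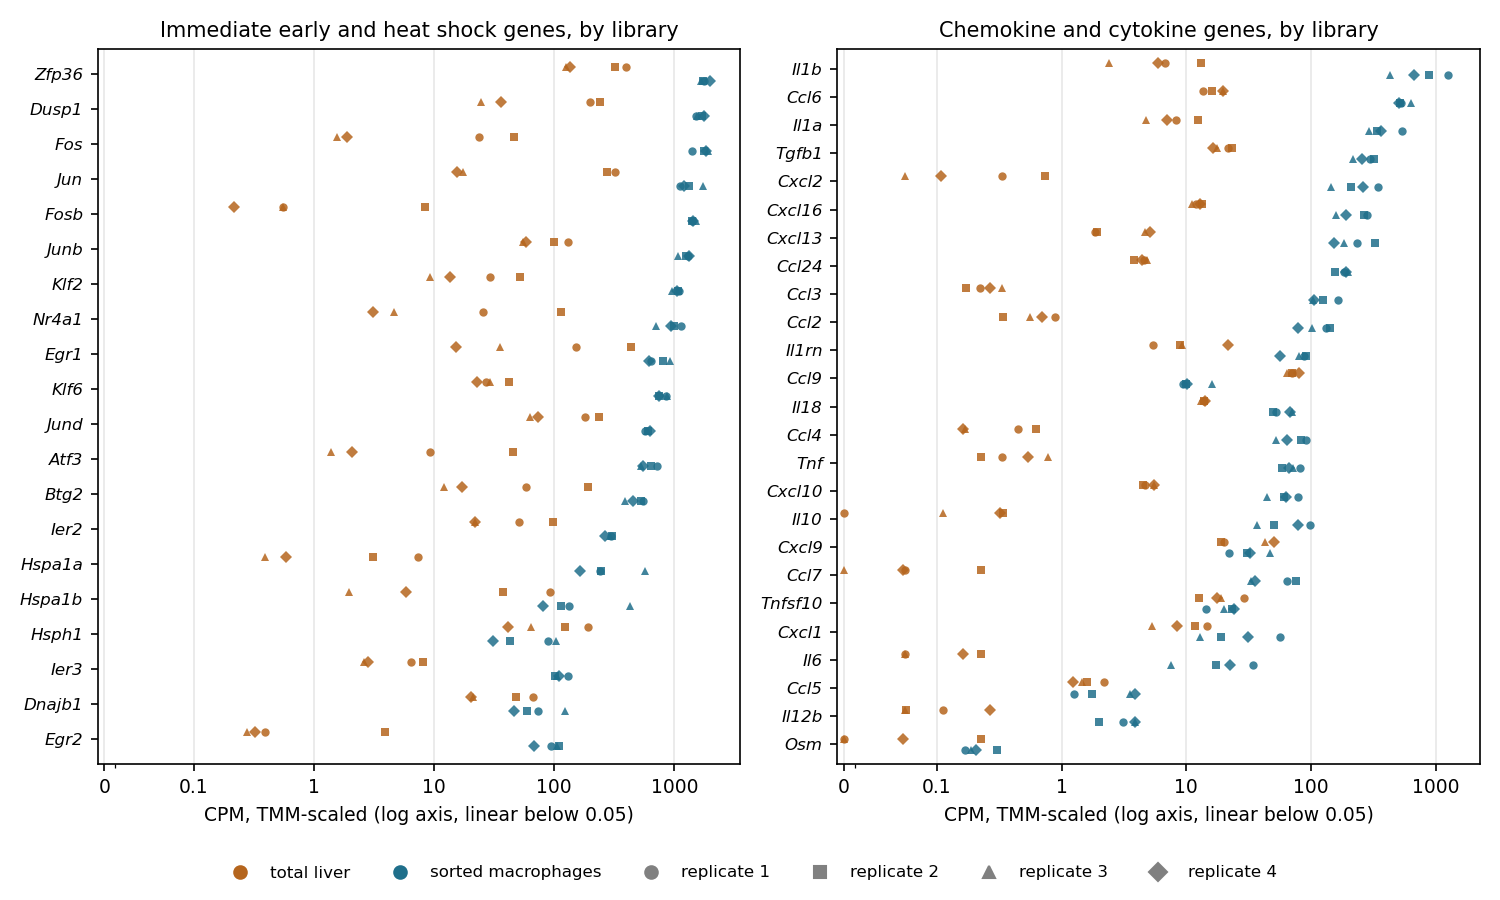
Level of each immediate early or heat shock gene (left) and each chemokine or cytokine gene (right) in each library, in TMM-scaled CPM on a log axis that is linear below 0.05. In the left panel liver circles and squares (replicates 1 and 2) lie right of the triangles and diamonds (3 and 4) in 19 of 20 genes.

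Class II antigen presentation genes were higher in 8 of 10, against 41.2% of all genes tested (median 4.18), and H2-Oa and H2-Ob did not pass. Cd74, the invariant chain, lay at 126, 127, 118 and 142 CPM in liver and 3085, 4215, 3496 and 2448 CPM in macrophages (log2 fold change 4.69 ± 0.20 SE, adjusted p = 3.85e-09), and H2-Aa at 48.2, 50.4, 48.4 and 61.5 CPM in liver and 1145, 1632, 1284 and 763 CPM in macrophages (log2 fold change 4.53 ± 0.24 SE, adjusted p = 1.87e-08). H2-Ob passed without liver replicate 4 (0.64 (adjusted p = 0.0279)) and with total-count scaling (0.98 (adjusted p = 0.00273)). Macrophage replicate 2 was the highest in 8 of the 10 genes and replicate 4 the lowest in 7. Shares over all genes for these ranks are not given here. Cell cycle genes were higher in 17 of 18, against the same 41.2% (median 3.37), and Tyms did not pass. Mki67, a marker of dividing cells, lay at 6.80, 4.38, 6.16 and 9.33 CPM in liver and 90.7, 95.2, 152 and 89.6 CPM in macrophages (log2 fold change 4.00 ± 0.25 SE, adjusted p = 8.41e-08), and Top2a and Aurkb had 4.14 and 4.95. Tyms passed without macrophage replicate 1 (0.48 (adjusted p = 0.0434)) and with total-count scaling (0.84 (adjusted p = 0.0036)). Macrophage replicates 3 and 4 lay above 1 and 2 in 16 of the 18, against 2631 of the 13158 genes tested. Their sum was 449.9 to 704 CPM in macrophages and 62.7 to 90.5 CPM in liver.

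Per kilobase of exon (GENCODE M21), the highest levels in macrophages belonged to Apoe (5012 CPM per kb), Cd5l (4864), Clec4f (3985), Ftl1 (3924), C1qa (3869) and C1qb (3429). In liver the same genes had 11507, 94.3, 68.4, 2047, 97.6 and 92.1 CPM per kb. Besides Apoe, these were Kupffer cell genes, C1q chains and the ferritin chain Ftl1. Next came Tmsb4x (2898 CPM per kb) and B2m (2816). By CPM alone, the lysosomal protease gene Ctsb stood just under Apoe (10203 against 10717 CPM).

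RNA of hepatocytes was reduced to under 1% of its liver level in the sorted cells. All 30 hepatocyte genes were tested, and 30 were lower, each over 8-fold, against 15.0% of all genes (median -9.48). Alb, serum albumin, lay at 109744, 112958, 92434 and 106568 CPM in liver and 248, 201, 78.7 and 109.9 CPM in macrophages (log2 fold change -9.37 ± 0.54 SE, adjusted p = 3.79e-08). Cyp2e1, a pericentral cytochrome, lay at 8436, 12022, 11822 and 9133 CPM in liver and 2.50, 5.08, 2.78 and 4.15 CPM in macrophages (log2 fold change -11.49 ± 0.38 SE, adjusted p = 4.52e-10), and Apob and Ahsg had -9.44 and -9.73. Cyp7a1, the rate-limiting enzyme of bile acid synthesis, had 4 counts in macrophage replicate 1 and none in the other 3, against 121, 199, 181 and 271 CPM in liver. The smallest difference was in Asgr2, a subunit of the asialoglycoprotein receptor (293, 322, 288 and 284 CPM in liver and 1.27, 1.36, 2.78 and 1.60 CPM in macrophages, log2 fold change -7.39 ± 0.24 SE, adjusted p = 3.84e-10). The list held 17.3 to 19.0% of the counts of the liver libraries and 0.0183 to 0.0493% of those of the macrophage libraries. Its summed macrophage level was 0.198, 0.176, 0.0687 and 0.0989% of the mean liver level in replicates 1 to 4 (mean 0.135 ± 0.0614%, SD, n = 4). Replicates 1 and 2 lay above 3 and 4 in 23 of the 30 genes, against 3316 of the 13158 genes tested. The hepatocyte transcription factors lay at a similar level, with a median of 0.0898% of liver.

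By the same rule, the 12 most lowered were Onecut1, Sult3a1, Necab1, Cyp2a5, Acot3, Cyp2b13, Cyp7a1, Clmn, Gys2, Abcc2, Slc22a26 and Cyp2a4, which include enzymes and transporters of hepatocytes. Necab1 and Sult3a1 had no count in any macrophage library and were at least 2043-fold and 2274-fold lower. Abcc2, the bilirubin export pump, lay at 833, 1019.7, 914 and 849 CPM in liver and 0.167, 0.352, 0.150 and 0.287 CPM in macrophages (log2 fold change -11.91 ± 0.24 SE, adjusted p = 5.38e-11). Cyp2a4 and Cyp2a5 are near-identical copies whose reads may be split between the symbols, and Sult3a1, Cyp2b13 and Slc22a26 belong to similar families. The same holds for Hspa1a, C4b and Hamp, each of which has a close copy in the genome.

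Genes of the hepatocyte zones were lower with 1 exception. Of 9 periportal genes tested, 8 were lower by over 8-fold and Ctnnbip1 was higher (19.1, 17.5, 16.6 and 10.3 CPM in liver and 30.3, 26.6, 24.7 and 25.4 CPM in macrophages, log2 fold change 0.75 ± 0.17 SE, adjusted p = 0.00182). Pck1, of gluconeogenesis, and Arg1, of the urea cycle, had -10.34 and -10.56. Ass1, another urea cycle enzyme known to be abundant in hepatocytes, had 34 counts over the 4 liver libraries and 0 in macrophages, so the table held almost none of its reads and it was not tested. Of 10 pericentral genes, 10 were lower, against 43.0% of all genes tested. Glul, glutamine synthetase, was the least so (1280.4, 2044, 1728 and 1376 CPM in liver and 476, 536, 593 and 415 CPM in macrophages, log2 fold change -1.67 ± 0.18 SE, adjusted p = 8.47e-06), and Oat and Slc1a2 had -3.26 and -3.62, while Rgn, Gulo and Cyp2c37 had -10.61, -11.38 and -10.70.

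**Figure D4:**
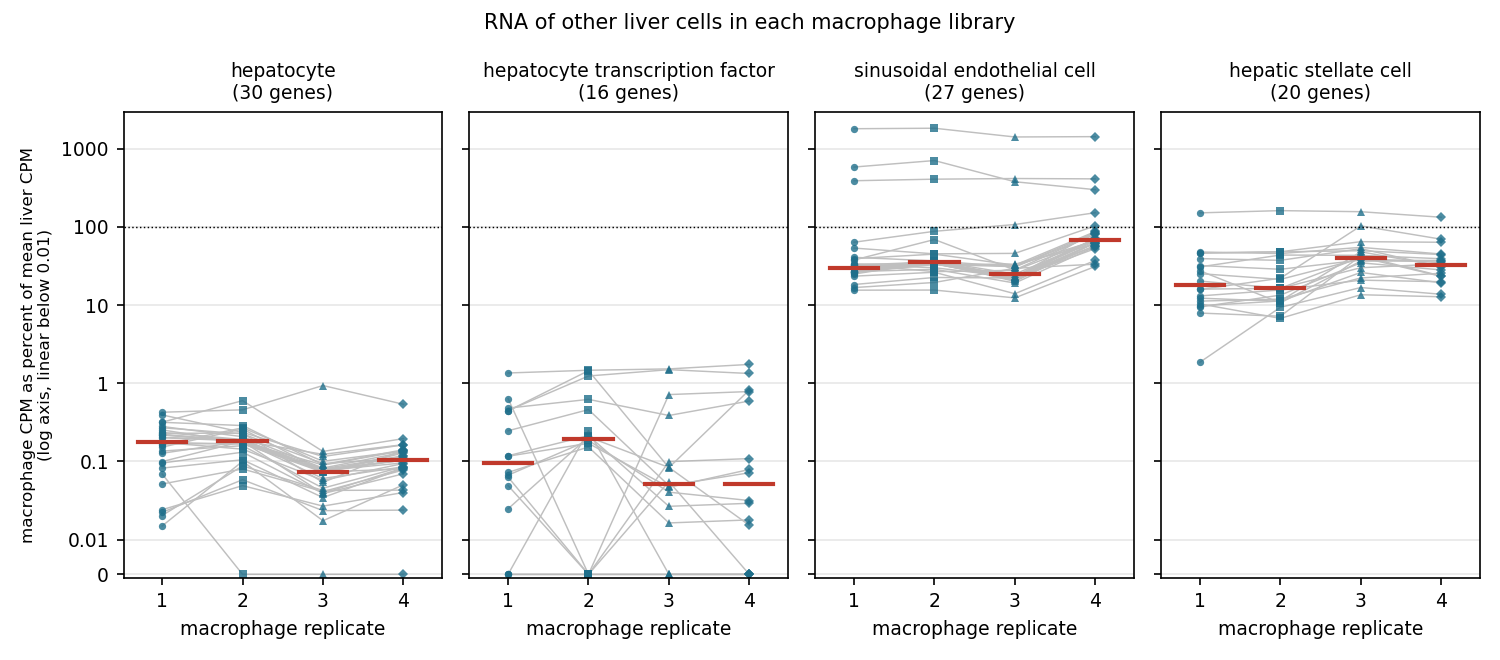
Macrophage level of each gene as percent of its mean liver level (vertical log axis, linear below 0.01) in macrophage replicates 1 to 4, for 4 gene lists; grey lines join a gene, red bars are medians, and the dotted line is equality with liver. Medians lie between 0.0739 and 0.180% for hepatocyte genes, between 24.9 and 68.2% for endothelial genes and between 16.4 and 40.2% for stellate genes.

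Most genes of sinusoidal endothelial cells were lower in the sorted cells but far from absent. Of 27 genes tested, 23 were lower, 3 were higher and 1 did not pass, against 43.0% lower and 41.2% higher among all genes tested. Most members had similar differences: Kdr, Ptprb and Ehd3 had log2 fold changes of -1.42, -1.52 and -1.32, and the list median was -1.35. The median member lay at 29.9, 35.7, 24.9 and 68.2% of the liver level in macrophage replicates 1 to 4, and replicate 4 was the highest in 24 of the 27. The share of all genes highest in that library is not given here. Kdr, the VEGF receptor, lay at 81.8, 129.9, 99.9 and 68.1 CPM in liver and 29.7, 31.8, 21.2 and 59.5 CPM in macrophages, and Clec4g, a sinusoidal lectin, at 72.7, 91.9, 83.8 and 79.0 CPM in liver and 26.6, 29.3, 16.4 and 51.3 CPM in macrophages. Gata4, the factor of sinusoidal identity, lay at 40.3, 33.6, 28.4 and 20.3 CPM in liver and 4.76, 4.78, 3.79 and 9.57 CPM in macrophages (log2 fold change -2.42 ± 0.30 SE, adjusted p = 2.17e-05). The 3 that were higher were Cdh5, Stab2 and Pecam1. Cdh5, a junction cadherin of endothelium, lay at 59.7, 74.6, 88.3 and 55.9 CPM in liver and 1258, 1276, 987 and 996 CPM in macrophages (log2 fold change 4.02 ± 0.19 SE, adjusted p = 7.61e-09). Stab2, a scavenger receptor, lay at 89.4, 130.3, 124 and 93.4 CPM in liver and 427, 447, 455 and 451 CPM in macrophages (log2 fold change 2.02 ± 0.14 SE, adjusted p = 1.66e-07), and Pecam1 at 26, 41.0, 34.5 and 25.4 CPM in liver and 185, 225, 120.2 and 95.3 CPM in macrophages (log2 fold change 2.30 ± 0.27 SE, adjusted p = 1.54e-05). In these 3 genes replicate 4 was not the highest macrophage library, and in Pecam1 it was the lowest. Because of their levels the summed CPM of the 27 genes in macrophages was 168 ± 15.4% (SD, n = 4) of the liver sum, so the sum lay above liver and the median below it. Dnase1l3 did not pass (92.5, 109, 114 and 64.4 CPM in liver and 60.6, 83.6, 102 and 145 CPM in macrophages). The source of the endothelial RNA in the sorted libraries was not tested.

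Most genes of hepatic stellate cells were lower as well, and were highest in a different macrophage library from the endothelial genes. Of 20 genes tested, 18 were lower, against 43.0% of all genes tested, 1 was higher and 1 did not pass (median log2 fold change -1.90). The median member lay at 18.2, 16.4, 40.2 and 32.6% of the liver level in replicates 1 to 4, replicate 3 was the highest in 15 of 20, and both 3 and 4 lay above 1 and 2 in 15 of 20, against 2631 of the 13158 genes tested. Dcn, decorin, lay at 227, 252, 303 and 296 CPM in liver and 33.1, 30.2, 70.5 and 52.1 CPM in macrophages (log2 fold change -2.54 ± 0.26 SE, adjusted p = 4.34e-06). Reln, reelin, lay at 90.1, 134, 147 and 133 CPM in liver and 9.99, 9.10, 54.0 and 29.8 CPM in macrophages (log2 fold change -2.29 ± 0.51 SE, adjusted p = 0.00153), with replicate 3 the highest of the macrophage libraries; without it the log2 fold change was -2.94 (adjusted p = 1.19e-04). Lrat, which stores vitamin A, and Rgs5 had -1.84 and -1.56, and Col1a1, a collagen of activated stellate cells, was the most lowered (-3.26). Hgf, hepatocyte growth factor, was the member that was higher (14.8, 22.4, 23.4 and 18.1 CPM in liver and 29.8, 31.8, 30.8 and 26.2 CPM in macrophages, log2 fold change 0.59 ± 0.14 SE, adjusted p = 0.00279), and Ngfr did not pass (-0.92). It passed without macrophage replicate 3, with -1.46 (adjusted p = 0.0142), and with the replicate number as a block, with -1.20 (adjusted p = 0.0201).

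Summed over the lists, macrophages held 168 ± 15.4% of the liver level of endothelial genes, a sum led by Cdh5 and Stab2, and 33.9 ± 7.95% of that of stellate genes (SD, n = 4). The hepatocyte sum was highest in replicate 1, the endothelial sum in replicate 2 and the stellate sum in replicate 3, while the median over genes was highest in replicate 2 for hepatocyte, 4 for endothelial and 3 for stellate genes.

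Most tested markers of cholangiocytes, T and NK cells and B cells were lower in the sorted cells, while several of neutrophils, dendritic cells and monocytes were higher. Among all genes tested 41.2% were higher and 43.0% lower. Of 13 cholangiocyte genes, 5 were tested and 5 were lower. Krt23 had no count in macrophages and was at least 143-fold lower, and the median of the 5 was -8.41, or -7.16 with the members that had no count at their bound. The 8 not tested reached at most 1.23 CPM in any library. Of 6 mesothelial genes Gpm6a was tested and was lower (-2.71). Of 17 T and NK cell genes 11 were tested, 10 were lower and Cd4 was higher (1.56, 0.910, 0.777 and 1.29 CPM in liver and 2.66, 5.23, 3.79 and 2.50 CPM in macrophages, log2 fold change 1.63 ± 0.32 SE, adjusted p = 6.64e-04). Cd3e, the epsilon chain of the CD3 complex of T cells, had no count in macrophages, against 1.73, 2.67, 1.61 and 1.5 CPM in liver, and was at least 63.2-fold lower.

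Among B cell genes 7 of 9 were lower, but Cd22, an inhibitory receptor, lay at 4.90, 3.30, 4.78 and 6.28 CPM in liver and 93.0, 94.5, 86.8 and 93.7 CPM in macrophages (log2 fold change 4.25 ± 0.16 SE, adjusted p = 1.32e-09), and Cd79b was higher as well (2.66). Of 13 neutrophil genes, 4 were tested. S100a9 was lower (-3.62), and Csf3r, the receptor of granulocyte colony stimulating factor, Mmp9 and Mmp8 were higher (4.24, 4.41 and 1.38). Mmp8 had adjusted p-values of 0.0521, 0.0526 and 0.0521 without liver replicates 1, 3 and 4 in turn, and without replicate 2 it had 2.05 (adjusted p = 0.00177). The granule genes Mpo and Ngp and the receptor Cxcr2 had no count in macrophages. They were among the 9 not tested, which reached at most 2.16 CPM in any library, liver included. Of 7 dendritic cell genes tested, 4 were higher, 1 was lower and 2 did not pass, against 41.2% higher and 43.0% lower among all genes. Batf3 and Irf4, factors of dendritic lineages, had 4.91 and 3.64, and Clec9a and Xcr1, markers of cross-presenting cells, 2.00 and 1.87. Zbtb46 was the member that was lower (-1.43), and Ccr7 was 1 of the 2 that did not pass. Flt3, the growth factor receptor of dendritic cells, did not pass (1.00, 1.48, 0.444 and 0.966 CPM in liver and 0.167, 0.0503, 2.14 and 2.63 CPM in macrophages), and its higher macrophage values were in replicates 3 and 4. Of 10 monocyte genes tested, 6 were higher and 2 lower. Plac8 and Treml4 had 5.02 and 4.74, while Ly6c2, which marks recruited monocytes, was lower (0.668, 0.967, 0.555 and 0.805 CPM in liver and 0.0333, 0.101, 0.113 and 0.370 CPM in macrophages, log2 fold change -2.27 ± 0.53 SE, adjusted p = 0.00228), and Ccr2, their homing receptor, did not pass (2.01, 2.16, 2.44 and 2.90 CPM in liver and 3.10, 4.02, 2.89 and 3.00 CPM in macrophages). Without macrophage replicate 4 Ly6c2 had -3.14 (adjusted p = 1.96e-04), and Ccr2 passed without liver replicate 4 (0.56 (adjusted p = 0.0299)), without liver replicates 3 and 4 (0.65 (adjusted p = 0.0353)) and with total-count scaling (0.93 (adjusted p = 0.00187)). Fn1, fibronectin, which hepatocytes secrete, was lower by far (-8.64).

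Of 8 tested markers of macrophages of other organs, 4 were higher, 3 were lower and 1 did not pass. Among all genes tested 41.2% were higher and 43.0% lower. Siglec1, a sialic acid receptor, lay at 23.6, 23.2, 28.7 and 37.6 CPM in liver and 1996, 2158, 2330.1 and 2491 CPM in macrophages (log2 fold change 6.31 ± 0.22 SE, adjusted p = 6.13e-10), and P2ry12, known from microglia, at 3.06, 3.93, 4.66 and 6.28 CPM in liver and 125, 119, 127 and 103 CPM in macrophages (log2 fold change 4.72 ± 0.19 SE, adjusted p = 2.30e-09). Siglecf lay at 962, 1066, 1678 and 1223% of its mean liver level in macrophage replicates 1 to 4. Cd209b lay at 435, 396, 139 and 145%, and Pparg at 81.9, 59.6, 89.7 and 87.3%. Gata6, the factor of peritoneal macrophages, and Sall1, that of microglia, were lower (-5.47 for Gata6), and Sall1 had 99.9, 149, 102 and 97.1 CPM in liver but 4 counts over the macrophage libraries. Of the platelet list 3 genes were tested, and Pf4 and Clec1b were higher (4.23 and 4.34) while Itga2b was lower (-1.80). The erythroid genes Alas2 and Klf1 were lower as well, with 0.733, 0.905, 0.676 and 0.657 CPM and 0.133, 0.151, 0 and 0 CPM in macrophages. The globin symbols Hba-a1, Hba-a2, Hbb-bs and Hbb-bt had no count in any of the 8 libraries, so blood could not be checked by them. Their absence from both tissues was not traced to a cause.

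The KI libraries gave the same contrast in other mice. Of 13122 genes tested there, 10614 passed (80.9%), 5176 higher (39.4%) and 5438 lower (41.4%). Of the 11079 genes called in WT, 9532 were called in the same direction in KI (86% of the WT calls and 89.8% of the KI calls), and 95 were called in opposite directions. In the Kupffer cell list 18 of 19 were higher again, in the hepatocyte list 30 of 30 were lower and in the stellate list 19 of 20. Fewer endothelial genes passed as lower in KI, 17 of 27 against 23 in WT, and fewer T and NK cell genes, 6 of 11 against 10. The interaction test, which asks whether the tissue difference itself differs between genotypes, passed in 1735 of 13668 genes (12.7%), 636 (4.65%) with a more positive and 1099 (8.04%) with a more negative difference in KI. With total-count scaling that split was 1297 and 586, and with upper quartile scaling 807 and 878. Leaving out 1 library gave 467 to 937 genes with a more positive and 699 to 1123 with a more negative difference. Both counts were near each other without WT liver replicate 3 (727 and 699) or 2 (804 and 772) and without KI liver replicate 1 (937 and 926), 2 (783 and 767) or 4 (697 and 732). These fits shifted the interaction values by a median of 0.0728 to 0.0876 (log2), and the other omissions by -0.00978 to 0.0135. Total-count scaling shifted them by 0.192 and upper quartile scaling by 0.0594. The surplus of more negative differences thus depended on the offset set by the scaling.

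Residual hepatocyte and stellate RNA was lower in the KI macrophages. The interaction passed in 25 of 30 hepatocyte genes and 15 of 20 stellate genes, each with a more negative difference in KI, against 8.04% of all genes in that direction. In either direction it passed in 2 of 27 endothelial and 5 of 11 T and NK cell genes, against 12.7% of all genes. Leaving out 1 library gave 24 to 26 hepatocyte genes and 12 to 15 stellate genes. T and NK cell genes went the other way: leaving out 1 library gave 4 to 7 with a more positive and 0 with a more negative difference in KI. The summed hepatocyte level in KI macrophages was 0.0362, 0.0232, 0.0134 and 0.0277% of that in KI liver, each below the lowest WT library. The summed stellate level was 14.6 ± 1.44% (SD, n = 4), with no KI library above 15.5% and no WT library below 27.0%. Alb had an interaction of -2.41 on the log2 scale (adjusted p = 0.0107), and Dcn of -2.27 (adjusted p = 8.26e-04). The cells of each genotype were sorted from different mice, so genotype and the make-up of the sorted cells cannot be told apart in these differences.

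Among macrophage genes, the interaction passed in 4 of 19 Kupffer cell genes, against 12.7% of all genes in either direction. They were Cd163 (-2.46, adjusted p = 0.0222), Cd207 (3.67, adjusted p = 0.00542), Fabp7 (1.23, adjusted p = 0.0278) and Slc16a9 (-0.71, adjusted p = 0.014). Leaving out 1 library gave 1 to 3 with a more positive and 1 to 3 with a more negative difference in KI. Clec4f, Cd5l and Vsig4 had tissue differences of 5.68, 5.83 and 5.17 in KI. In the class II list it passed in 7 of 10 genes, each with a more positive difference in KI, against 4.65% of all genes in that direction (Cd74 by 1.34, adjusted p = 0.0278). The summed class II level in KI macrophages was 4339, 3617, 10588 and 5393% of that in KI liver in replicates 1 to 4, with replicate 3 the highest. Without that library the interaction passed in 6 of 10 class II genes, and Cd74 had 0.97 (adjusted p = 0.0389). It passed in 3 of 10 without WT macrophage replicate 1 or 4, where Cd74 did not pass (adjusted p = 0.0536 and 0.0587), and in 4 of 10 without WT liver replicate 4. Fabp7 did not pass without WT macrophage replicate 4 or KI liver replicate 3 (adjusted p = 0.0533 and 0.0573), and Slc16a9 without KI liver replicate 4 (adjusted p = 0.0542) or with total-count scaling (adjusted p = 0.0600).

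**Figure D5:**
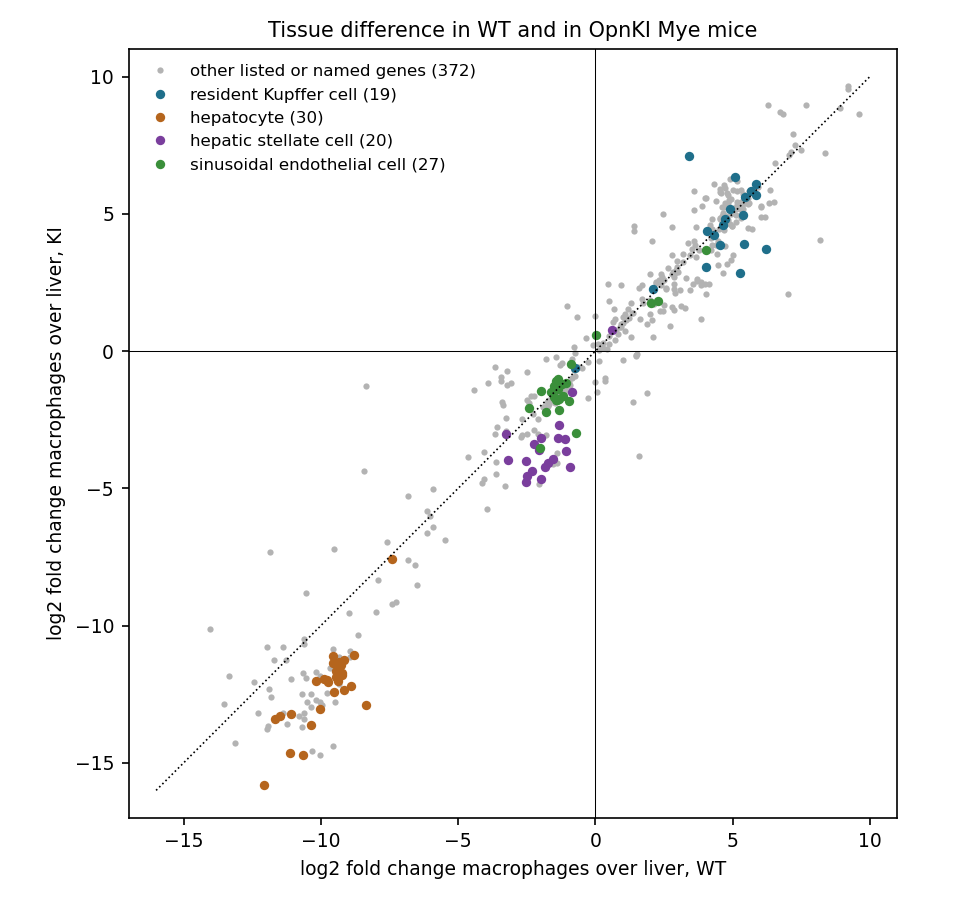
Log2 fold change of macrophages over liver in WT (horizontal) and in KI (vertical) for listed and named genes tested in both comparisons, which share no library; the dotted line marks equal values. Most hepatocyte and stellate genes lie below the line, and Kupffer cell genes lie on both sides of it.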

How the data were processed

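RNA-seq of poly(A) RNA was compared between 4 sorted macrophage and 4 total liver libraries. The authors deposited whole-number counts per gene symbol, aligned to build mm10 per the submitters' processing notes. Which aligner, counter, annotation and strand rule made them is not given in the sources used here. Counts were tested with edgeR 4.0.16 in R 4.3.3: genes were kept by filterByExpr (min.count 10, min.total.count 15), scaled by TMM and tested by the quasi-likelihood F test, with Benjamini-Hochberg adjustment over all genes tested and a threshold of 0.05. The tissue by genotype interaction was fitted on the 16 female control diet libraries. DESeq2 1.42.0 was an alternative. On simulated counts for 13158 genes the test recovered 182 of 200 changed genes, and 8 other calls made up 4.21% of all calls. The WT comparison called 11079 genes, and a setting with that many changed genes was not tested. No 2 libraries were duplicates (smallest reduced chi-square of a pair 2.33).

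The members and gene lists were chosen with earlier results of these data known. Named genes were the 12 at each end of the fold changes (adjusted p under 0.05, mean of at least 50 CPM, no overlap), at most 4 of the highest level and both extremes of each list, Spp1, Lyz2, the sort genes and Xist. Further list members were named after their values were seen. Alternatives were other scalings, filters, tests, a replicate block, and leaving out libraries. Some listed genes are not reported here by name.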

Additional observations from a re-analysis of the deposited data

Results flagged for a closer look

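The highest or lowest of 4 libraries stood apart from the other 3 by Dixon's test in 31 of the 516 sets of 4 values checked, which were the genes named above and the summed lists in each tissue. Chance gives about 5% of such calls. In total liver, replicate 1 stood apart in Gdf2 (24.6 CPM). Replicate 2 of liver did so in Col1a1 (10.6 CPM), Csf3r (9.50 CPM), Fosb (8.48 CPM), Mmp8 (0.512 CPM), Pck1 (6334 CPM) and Sall1 (149 CPM). Replicate 3 of liver did so in C8b (145 CPM) and Rgs5 (120.2 CPM). Replicate 4 of liver did so in C1qc (122 CPM), H2-Aa (61.5 CPM), Il18bp (32.0 CPM) and Paqr9 (391 CPM). In the sorted macrophages, replicate 1 stood apart in Hc (3.30 CPM) and Spic (210.3 CPM). Replicate 2 of the macrophages did so in H2-Ob (4.12 CPM) and Lyz2 (2281 CPM). Replicate 3 of the macrophages did so in Ccl6 (631 CPM), Ccl9 (16 CPM), Fosb (1510.2 CPM) and Mki67 (152 CPM). Replicate 4 of the macrophages did so in Ctsl (318 CPM), Ehd3 (77.3 CPM), Gata4 (9.57 CPM), Irf7 (1406 CPM), Lpl (1482 CPM), Notch2 (116 CPM) and Pf4 (15.5 CPM). Summed levels stood apart for the chemokine and cytokine list in liver replicate 4 (273 CPM), the lipid-associated macrophage list in macrophage replicate 4 (2264 CPM) and the periportal hepatocyte list in liver replicate 2 (10513 CPM).

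The tissue difference differed between KI and WT (edgeR interaction test, adjusted p under 0.05) in 51 of the 240 named genes. Among all genes tested for it 12.7% passed, and the named genes include the hepatocyte and stellate genes described above. Each value is the KI minus WT difference of log2 fold changes. Among hepatocyte genes, transcription factors and plasma proteins it was -2.33 (Ahsg), -2.41 (Alb), -2.44 (Apob), -1.38 (Arg1), -1.82 (Cyp2e1), -2.96 (Hnf4a), -4.70 (Nr1i2), -4.27 (Pck1) and -2.61 (Rgn). For stellate genes it was -2.27 (Dcn), -2.41 (Lrat), -3.31 (Ngfr), -2.11 (Reln) and -2.41 (Rgs5). In complement genes it was -1.52 (C1s1), -1.88 (C9), -1.78 (Cfi), -0.78 (Cfp), -1.82 (Hc) and -1.62 (Masp1). Among Kupffer cell genes it was -2.46 (Cd163), 3.67 (Cd207), 1.23 (Fabp7) and -0.71 (Slc16a9). For class II genes it was 1.34 (Cd74) and 1.35 (H2-Aa). In iron genes it was -2.52 (Hamp), -2.25 (Hp), -2.02 (Hpx), -1.34 (Spic) and -1.97 (Tfr2). Among niche ligands it was -1.80 (Cxcl12), -2.83 (Gdf2) and -2.58 (Il34). For pattern receptors it was 1.02 (Clec7a), 0.63 (Tlr4) and -1.31 (Tlr7). In markers of other leukocytes and tissue macrophages it was 1.98 (Ccr2), 7.05 (Cd3e), 0.77 (Clec9a), -1.74 (Fn1), -3.25 (Mmp8), -1.53 (Plac8) and -0.93 (Siglec1). Among the remaining genes it was 1.69 (Cd9), 0.91 (Cebpa), 0.74 (Npc1), -4.95 (Slfn4), 4.01 (Spp1), -1.35 (Tyms) and -1.37 (Zfp36). For Cd3e, which had no count in WT macrophages, the fitted value depends on the prior count and gives no size. Leaving out each of the 16 libraries in turn, 31 of the 51 passed every time and 51 kept their sign, while Arg1, C9, Cd74, Cfp, Clec9a, Cyp2e1, Fabp7, H2-Aa, Hamp, Hc, Masp1, Npc1, Reln, Siglec1, Slc16a9, Slfn4, Spic, Tlr4, Tyms and Zfp36 did not pass without at least 1 of the libraries. The source of these differences was not tested.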

How the results depend on the processing

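The WT count of 11079 genes kept within 1.5 times of its value under every alternative run, from 10855 without liver replicates 1 and 2 to 12479 without a filter on low counts, and leaving out 1 library gave 10917 to 11084. The KI count ranged from 10381 to 10652 with 1 library left out, and the interaction count from 1314 to 1863. The replicate block gave 10977, 10453 and 1355 genes for WT, KI and the interaction. The numbers did not pair the libraries: same-numbered deviations correlated at -0.00143 to 0.0317 in WT and -0.0377 to 0.175 in KI. DESeq2 called 12206, 11878 and 2389 genes. Leaving out 1 macrophage library, the summed level as percent of liver was 2503 to 2609 for Kupffer cell genes, 0.114 to 0.157 for hepatocyte genes, 164 to 175 for endothelial genes and 30.9 to 36.2 for stellate genes. With CPM over the total count it moved to 3573, 236 and 47.8% for Kupffer cell, endothelial and stellate genes, and as a median over genes to 2986% for Kupffer cell and 39.1% for endothelial genes, since Cdh5 and Stab2 lead the endothelial sum.

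Of 240 named genes, 218 kept direction and call under all 17 alternatives of the WT comparison. None of the 8 that changed sign had passed. With total-count scaling the log2 fold change was 0.41 in Bmpr2, 0.21 in Cx3cl1, 0.48 in Cxcl9 and 0.14 in H2-Oa. Cxcl9 had 0.0223 with upper quartile scaling, 0.0399 without a filter, 0.0706 with the replicate block and 0.00981 with the spread taken over 16 libraries. Dnase1l3 had -0.00895 with DESeq2 size factors and -0.00857 with the block, where Flt3 had -0.15. Without liver replicates 3 and 4, a choice made after seeing the data, Bmpr2 had 0.0727, Cx3cl1 0.12, Cxcl9 0.77, Dnase1l3 -0.0355 and Tnfsf10 -0.0104. Without replicates 1 and 2 Hsph1 had 0.33. With 1 library left out the values ranged from -0.0907 to 0.31 in Tnfsf10, -0.15 to 0.10 in Bmpr2, -0.21 to 0.29 in Cxcl9, -0.20 to 0.22 in Dnase1l3 and -0.26 to 0.76 in Flt3. The cause was not tested. Depth limits genes near 0 in macrophages, where 3 counts over the 4 libraries equal 0.0297 CPM.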
